A study of Mus musculus with 18 samples.

Results

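Nsf, Syt1, Stxbp5l and Sgip1 are 4 genes whose products work in the cycle by which synaptic vesicles fuse with the presynaptic membrane and are taken up again. They were selected on the authors' p for H3.3 per site: each carries a genic site in at least 1 of the authors' lists of differential H3.3 sites, so the values that chose them are described here and not tested again. Genic means assigned by the authors to a gene body or a promoter. The 4 genes held 6 sites, 5 in the susceptible list of 1286 sites and 1 in the acute list of 1014 sites. Of all 2300 listed sites, 1252 were genic.

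H3.3 was profiled by crosslinking chromatin immunoprecipitation with sequencing in the nucleus accumbens, the ventral part of the striatum, of C57Bl/6J mice. Susceptible re-exposed mice had gone through chronic social defeat, were classed as susceptible from their social interaction 48 h later, and met an aggressor again for 5 min followed by 55 min of housing beside it. Acutely stressed mice had the same 5 min and 55 min of exposure without the earlier defeat series. Controls came straight out of their home cage. Tissue was collected at day 28, each library pooled both sides of the nucleus accumbens of 5 animals, and the labels give 3 H3.3 and 3 Input libraries per condition. There was no library of susceptible mice without the renewed exposure, so re-exposure, earlier defeat and selection as susceptible cannot be told apart. The tissue holds several cell types, and fewer cells of a type and less H3.3 per cell cannot be told apart.

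H3.3 is a histone H3 variant whose deposition does not depend on DNA replication, which makes it the main source of new H3 in neurons, cells that no longer divide. It is known for its place at active promoters and along transcribed gene bodies. At the synapse, vesicle fusion is driven by SNARE proteins on the vesicle and the plasma membrane that zip into a tight bundle. Synaptotagmin-1, the product of Syt1, binds calcium and triggers this fusion. NSF, the product of Nsf, is the ATPase that pulls the spent SNARE bundles apart so that they can be used again. Tomosyn-2, the product of Stxbp5l, carries a SNARE-like motif and restrains the assembly of fusion complexes. SGIP1 is a neuronal adaptor of clathrin-mediated endocytosis, the route by which vesicle membrane is retrieved.

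All 6 sites lay in gene bodies. So did 88.9% of all genic lower sites of the susceptible list and 89.4% of those of the acute list, whose median distances from the start were 51.6 and 53.1 kb. The 250 bases upstream of each annotated start are shown because the distances of the sites are counted from these starts and no listed site fell near them. They are RefSeq sequences (GRCm38.p6), 5′ to 3′ on the gene's strand. The RefSeq start used matched that of the authors' annotation to the base (offset of 0 bp) in all 4 genes. RefSeq gene bounds reach further upstream for Syt1, Stxbp5l and Sgip1. For Sgip1 they begin at position 102741302, so its whole window lies within the RefSeq gene. Capitals mark every match to the GC box GGGCGG, the CCAAT box CCAAT, the E-box CACGTG or the core TGACG of the cAMP response element, on either strand.
Nsf (chr11:103954057-103954306, minus strand): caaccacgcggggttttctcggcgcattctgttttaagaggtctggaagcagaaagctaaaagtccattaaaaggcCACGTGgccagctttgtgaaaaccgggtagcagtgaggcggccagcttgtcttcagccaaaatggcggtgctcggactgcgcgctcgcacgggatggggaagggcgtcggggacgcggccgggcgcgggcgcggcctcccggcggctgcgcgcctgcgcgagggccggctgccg
Syt1 (chr10:109010976-109011225, minus strand): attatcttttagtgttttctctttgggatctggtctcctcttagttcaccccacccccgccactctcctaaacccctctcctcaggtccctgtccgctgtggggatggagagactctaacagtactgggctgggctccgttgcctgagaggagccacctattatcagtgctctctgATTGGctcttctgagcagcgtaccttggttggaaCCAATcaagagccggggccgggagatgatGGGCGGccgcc
Stxbp5l (chr16:37384959-37385208, minus strand): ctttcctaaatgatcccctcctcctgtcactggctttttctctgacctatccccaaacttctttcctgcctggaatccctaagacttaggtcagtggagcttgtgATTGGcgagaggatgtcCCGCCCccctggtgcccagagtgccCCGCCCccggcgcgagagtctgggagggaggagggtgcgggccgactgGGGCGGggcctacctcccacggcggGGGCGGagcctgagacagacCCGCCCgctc
Sgip1 (chr4:102759885-102760134, plus strand): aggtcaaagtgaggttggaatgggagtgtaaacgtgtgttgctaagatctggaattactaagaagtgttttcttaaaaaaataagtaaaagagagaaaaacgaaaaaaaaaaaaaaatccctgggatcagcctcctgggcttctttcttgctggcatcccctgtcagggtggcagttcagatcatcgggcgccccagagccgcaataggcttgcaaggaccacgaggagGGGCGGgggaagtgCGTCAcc

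The Nsf window held 30 CpG dinucleotides, at the 94.4th percentile of 32817 promoter windows of the same length, whose median was 6. The Stxbp5l window held 14, and those of Syt1 and Sgip1 held 8 each. GC boxes were found 5 times in the Stxbp5l window and 1 time each in those of Syt1 and Sgip1, and 32.7% of all windows held at least 1. The CCAAT box occurred 2 times in Syt1 and 1 time in Stxbp5l (33.8% of all windows), the E-box 1 time in Nsf (6.02%) and the TGACG core 1 time in Sgip1 (17.7%). No motif was shared by all 4 windows. The listed site nearest to each start was the gene's own, 25.3 kb away for Sgip1, 94.8 kb for Nsf, 113 kb for Stxbp5l and 367 kb for Syt1 in the susceptible list. In the acute list the nearest site was 81.5 kb from the start of Sgip1 and between 132 and 3012 kb from the other starts.

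Positions follow the mm10 build of the authors' tables. The Nsf site spanned 475 bp on chromosome 11 (103858801 to 103859275), at 71.8% of the way along a gene of 132 kb. The Syt1 site spanned 275 bp on chromosome 10 (108643801 to 108644075), at 71.5% of a gene of 513 kb. Stxbp5l had 2 sites on chromosome 16, numbered here from the gene's start. Site 1 (37272076 to 37272350) lay at 40.6% and site 2 (37177401 to 37177750) at 74.7% of a gene of 278 kb, and 94.3 kb separated them. In Sgip1, on chromosome 4, the susceptible site (102785401 to 102785700) lay 25.4 kb into a gene of 213 kb by the authors' annotation. The acute site (102841626 to 102841950) lay 55.9 kb further in, at 38.4% of its length. At the midpoint of each site RefSeq had no gene other than the one named. Whether the sites are exonic or intronic was not analysed here.

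**Figure D1:**
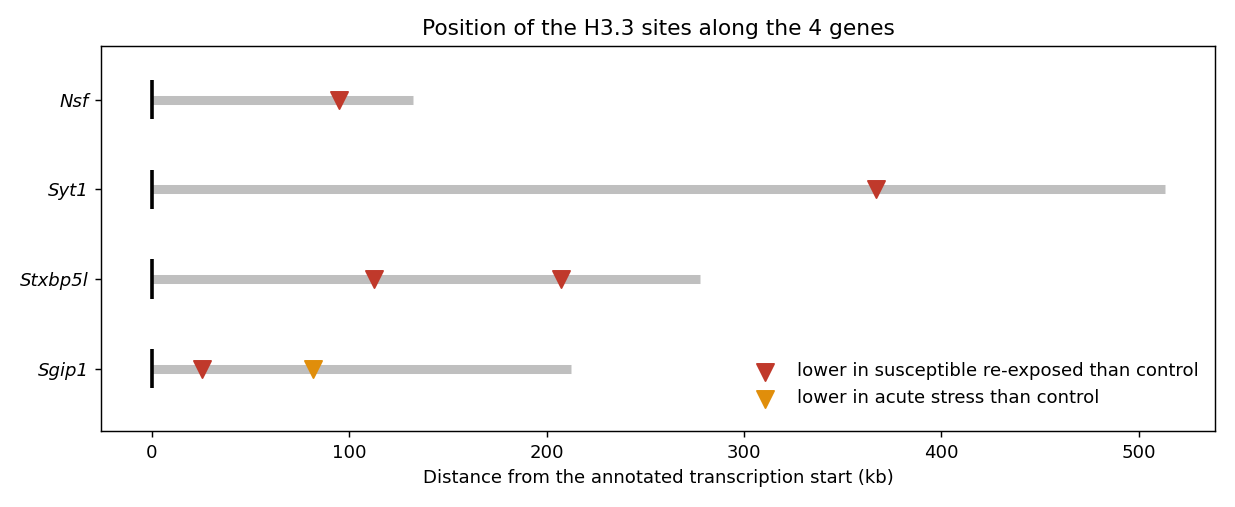
Gene bodies of Nsf, Syt1, Stxbp5l and Sgip1 drawn to scale from the authors' annotated start (vertical tick), in kb, with triangles at the listed H3.3 sites. All 6 sites lie between 25.4 and 367 kb from the start, and Stxbp5l and Sgip1 carry 2 sites each.

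The first comparison set susceptible re-exposed mice against controls. H3.3 was lower in the susceptible libraries at all 5 sites of the 4 genes, and at each of them every susceptible library was below both control libraries. Both patterns were near universal in this list: 97.6% of its sites were lower and the libraries of the groups did not overlap at 99.8%, so neither is particular to these genes. The deposited cells hold 3 susceptible and 2 control values per site, although 3 control libraries are labelled. The tables do not say why, or which labelled library each position is. Values are normalised read counts per site, in which 1 read of a susceptible library was worth 1.63, 0.828 or 1.47 and 1 read of a control library 0.918 or 0.534. Replicates were described as biological. With 3 against 2 libraries a 2-sided exact rank test of 1 site cannot go below p = 0.2.

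Nsf, the SNARE disassembly ATPase, had the highest counts of the group. Its site held 6.51, 4.97 and 2.94 normalised counts in the susceptible libraries, against 19.3 and 17.6 in the control libraries. The lowest control library was 11.1 normalised counts above the highest susceptible library. Susceptible mice averaged 4.81 ± 1.79 (SD, n = 3) and controls 18.4 ± 1.17 (SD, n = 2). The site rested on 12 susceptible and 54 control reads, and the depth-scaled ratio of pooled reads was 0.263 (exact Clopper-Pearson 95% counting interval 0.128 to 0.498). In the authors' deposited table the log2 fold change was -1.94 for the whole site and -2.99 for its best window of 250 bp. Among the 693 genic lower sites of the list, the Nsf site was at the 98.3rd percentile of control mean and the 97.0th of susceptible mean. Its log2 fold change was smaller in size than at most of them, with a list median of -2.40.

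Syt1, the calcium sensor, had the lowest susceptible mean of the group. Its site held 0, 3.31 and 0 normalised counts in the susceptible libraries, against 12.9 and 10.1 in the control libraries. All 4 susceptible reads came from the second library, while the control libraries held 33 reads. This was so at 59 (4.70%) of all lower sites of the list, where a single susceptible library held every read. The means were 1.10 ± 1.91 (SD, n = 3) and 11.5 ± 1.92 (SD, n = 2), so the spread among the susceptible libraries exceeded their mean. The depth-scaled ratio of pooled reads was 0.143 (95% counting interval 0.0369 to 0.403). In the authors' deposited table the log2 fold change was -3.38, at the 2.96th percentile of the genic lower sites, where low percentiles are the strongest decreases. Without the first or the third susceptible library the value was -2.80, and without the second no finite value could be formed because the other two were at 0.

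Stxbp5l, the tomosyn-2 gene, was lower at both of its sites. Site 1 held 3.26, 1.66 and 2.94 normalised counts in the susceptible libraries, against 16.5 and 10.7 in the control libraries. The control libraries lay further apart here than at any other of the 6 sites, with a mean of 13.6 ± 4.13 (SD, n = 2), against 2.62 ± 0.847 (SD, n = 3) in susceptible mice. Site 2 held 1.63, 2.48 and 2.94 in the susceptible libraries, against 13.8 and 12.8 in the control libraries. There the SD was under 1 in both groups, with a mean of 2.35 ± 0.665 for susceptible mice (SD, n = 3) and 13.3 ± 0.672 for controls (SD, n = 2). Each site rested on 6 susceptible reads, with 38 control reads at site 1 and 39 at site 2. The depth-scaled ratios of pooled reads were 0.187 at site 1 (95% counting interval 0.0646 to 0.446) and 0.182 at site 2 (0.0630 to 0.433), and these intervals cover each other almost entirely. In the authors' deposited table the log2 fold change was -2.38 at site 1 and -2.50 at site 2, close to the genic median of the list. Its p for site 1 was 7.96e-05, the member value nearest to the largest p listed for a lower site, 9.28e-05, and sites just outside the list were not analysed here.

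Sgip1, the endocytic adaptor gene, had the smallest p of the group in the authors' deposited table, 7.41e-07. Its site held 1.63, 0.83 and 2.94 normalised counts in the susceptible libraries, against 13.8 and 12.3 in the control libraries. Susceptible mice averaged 1.80 ± 1.07 (SD, n = 3) and controls 13.0 ± 1.05 (SD, n = 2). With 4 susceptible and 38 control reads the depth-scaled ratio was 0.125 (95% counting interval 0.0323 to 0.346). Its log2 fold change in the authors' deposited table was -2.86.

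Set per length, the 5 sites were alike in controls and less so in susceptible mice. Every lower site of this list held at least 10.09 normalised counts in the first control library and 9.61 in the second. Their median length was 275 bp. Whether other listed sites were as alike per length was not analysed. The susceptible mean ran between 0.401 normalised counts per 100 bp at Syt1 and 1.01 at Nsf, and the control mean between 3.80 at site 2 of Stxbp5l and 4.95 at site 1. The higher total at Nsf in controls therefore went with its longer span: per 100 bp its control mean was 3.88, below that of Syt1 (4.18) and Sgip1 (4.34). No single susceptible library was the highest throughout. The first was highest at Nsf and site 1 of Stxbp5l, the second at Syt1, and the third at site 2 of Stxbp5l and at Sgip1. Counting intervals and read totals here cover counting error only. The sites were listed by the authors' p on these same counts, so intervals that leave out 1 are no further test.

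**Figure D2:**
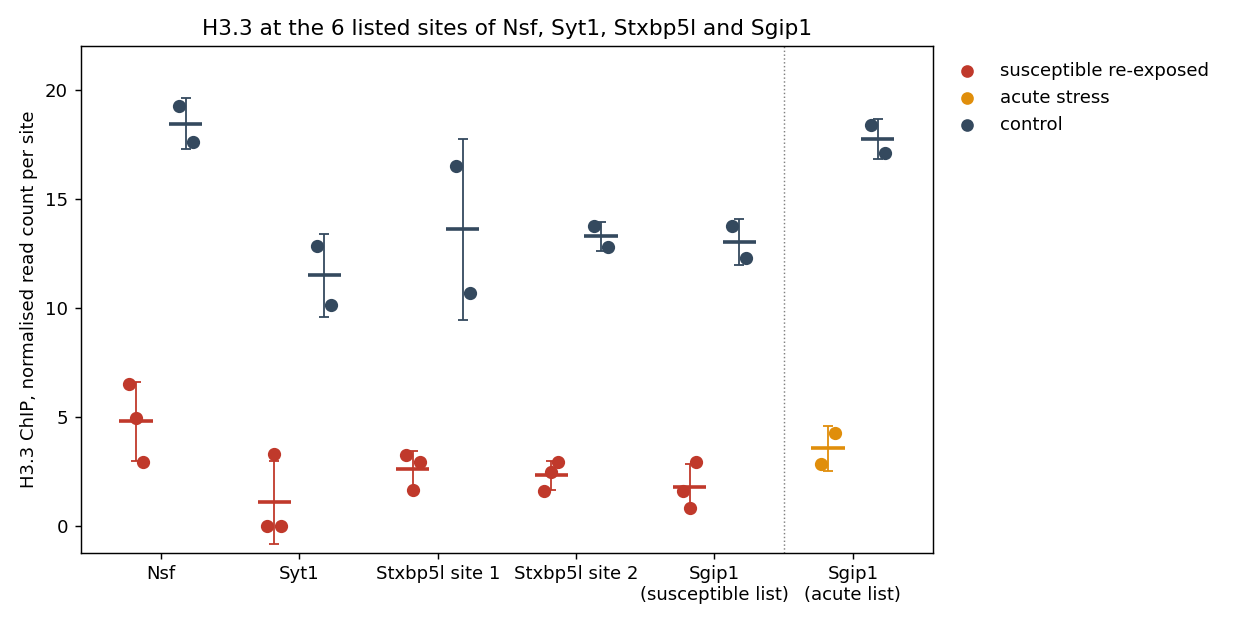
Normalised H3.3 read count per site in each library (points), with the group mean (bar) and SD (whisker), for the 5 sites of the susceptible list and, right of the dotted line, the acute site of Sgip1. Every stress library lies below every control library at each site, and the control libraries differ most at site 1 of Stxbp5l (16.5 and 10.7).

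**Figure D3:**
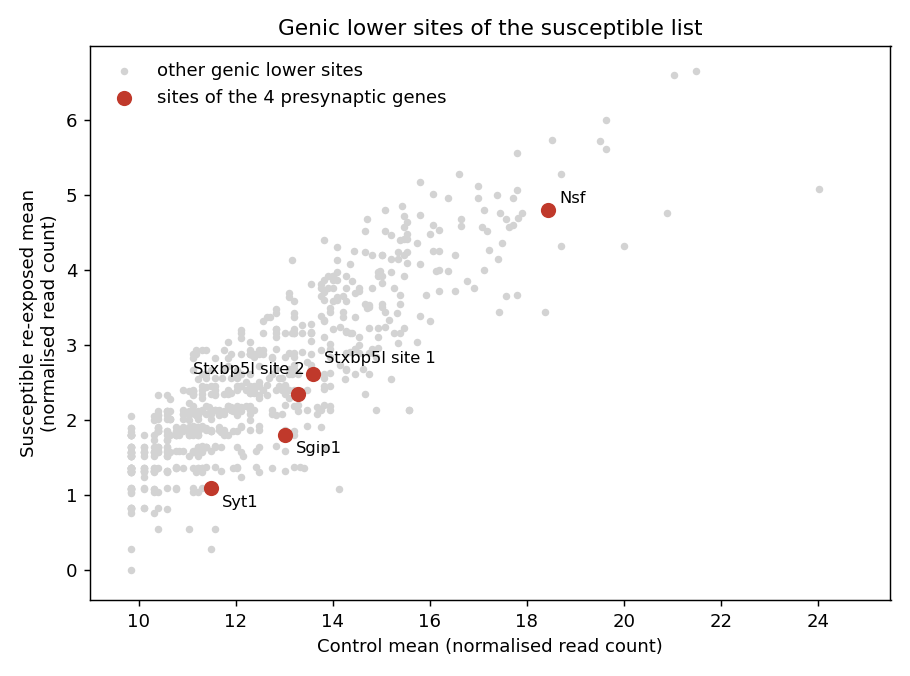
Susceptible mean against control mean, both in normalised read counts, at the 693 genic lower sites of the susceptible list, with the 5 sites of the 4 genes in red. Nsf (4.81 and 18.4) sits among the sites with the highest means of both groups, and Syt1 (1.10 and 11.5) lies at the low end.

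The deposited enrichment ratios did not move with the counts at every site. The tables do not state what the ratio is relative to. In the authors' deposited table the Nsf ratio was 0.91 in susceptible mice and 2.12 in controls, and at Syt1 it was 0.47 in susceptible mice and listed as infinite in controls. At Sgip1 it was 2.53 in susceptible mice and again infinite in controls. Stxbp5l went the other way at both sites: the authors' deposited table gives 0.91 in susceptible mice and 0.56 in controls at site 1, and 1.62 and 1.19 at site 2. A larger ratio in susceptible mice was listed at 20.8% of all lower sites, and an infinite control ratio at 60.3%. Where the control ratio is infinite the susceptible one cannot be larger. Among sites with a finite control ratio, as at Stxbp5l, the share is therefore higher than 20.8%, so the order at Stxbp5l is not particular to it.

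The second comparison set acutely stressed mice against controls, and of the 4 genes only Sgip1 had a site in that list, again a lower one. In this list 46.6% of the sites were lower and the groups' libraries did not overlap at 100%. Its cells hold 2 acute stress and 2 control values per site, although 3 libraries of each group are labelled. The Sgip1 site held 2.85 and 4.29 normalised counts in the acute stress libraries, against 18.4 and 17.1 in the control libraries. Acutely stressed mice averaged 3.57 ± 1.02 and controls 17.7 ± 0.926 (SD, 2 libraries each), on 6 acute stress and 43 control reads. With 2 against 2 libraries a 2-sided exact rank test cannot go below p = 0.333. The depth-scaled ratio of pooled reads was 0.195 (95% counting interval 0.0678 to 0.460). In the authors' deposited table the log2 fold change was -2.31, against a median of -2.64 over the 274 genic lower sites of this list. Its enrichment ratio at this site was infinite after acute stress and 0.47 in controls, the opposite order to the counts. A larger ratio after acute stress was listed at 18.8% of the lower sites of this list and an infinite one at 37.2%. The control ratio was infinite at 55.0%, where a larger one after acute stress cannot be listed, so the share among the other sites is higher than 18.8%.

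The control reads of both lists came from the same libraries, since at the 18 sites with equal coordinates the control reads were equal in 18. The Sgip1 values of the 2 comparisons therefore share their controls and lie at different positions, and are given side by side only. At the susceptible site the control libraries held 5.00 and 7.67 reads per 100 bp, and at the acute site 5.23 and 8.0. Neither list gives values at the other's Sgip1 site. For Nsf, Syt1 and Stxbp5l no acute value was available, so whether H3.3 at their sites differed after acute stress could not be read from these lists.

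Long genes held a listed site more often than short ones, and all 4 genes are long. By RefSeq, Nsf spans 132 kb, Sgip1 236 kb, Stxbp5l 278 kb and Syt1 513 kb, against a median of 17.5 kb over 20665 autosomal protein-coding genes. Nsf, the shortest of the 4, is at the 92.1st percentile of their lengths. A lower susceptible site was found in 2.71% of all these genes, but in 18.6% of the 1626 that are at least as long as Nsf and in 1.36% of the shorter ones. For acute stress the shares were 1.15% with a lower and 1.12% with a higher site over all genes, and 8.3% and 6.27% among the long ones.

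The 4 genes belong to a wider list of 105 presynaptic genes in 5 functional groups, of which 102 lie on autosomes, the only chromosomes with listed sites. A lower susceptible site was found in 14 of the 105 (13.3%, beside 2.71% of all genes). A higher one was found in 0, where 0.0871% of all genes had a higher site. The 4 genes were picked for having a site and so raise the share with a lower site, and 10 other genes make up the rest. The lists were also chosen with earlier results of these data known. Whether presynaptic genes held lower sites more often than other genes was not tested. Of the 32 list genes at least as long as Nsf 12 had a lower site (37.5%, the 4 genes included), beside 18.6% of all genes of that length. The 4 genes raise this share by selection, since each was picked for a site and Nsf sets the length limit. Of the 70 shorter autosomal list genes 2 had a lower site, where 1.36% of all shorter genes had one. The 11 sites of the 10 other genes were in gene bodies, as were 88.9% of all genic lower sites of this list, and lay 4.98 to 277 kb from the start. Their log2 fold changes in the authors' deposited table ran between -2.93 and -1.65 with a median of -2.13, beside -3.38 to -1.94 with a median of -2.50 for the 5 sites of the 4 genes and -2.40 for all genic lower sites.

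Among SNARE genes and their regulators 4 of 21 had a lower susceptible site, Nsf and Stxbp5l with Cadps and Cadps2, whose products prime dense-core vesicles for release. Cadps2 also had 2 sites. The one 250 kb from the start averaged 1.59 ± 0.102 normalised counts in the 3 susceptible libraries and 11.1 ± 0.141 in the 2 control libraries (SD). The one 4.98 kb from the start averaged 2.2 ± 2.53 in the susceptible and 13.0 ± 1.05 in the control libraries. Cadps averaged 4.69 ± 1.29 in the 3 susceptible libraries and 14.7 ± 2.62 in the 2 control libraries (SD). Of the 16 genes listed as calcium sensors of release, 1 had a site (6.25%), Syt1, which was picked for it. Syt1 is among the 2 of them at least as long as Nsf.

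Of 18 active zone genes 3 had a lower site (16.7%, beside 2.71% of all genes). All 3 were among the 9 at least as long as Nsf, a length at which 18.6% of all genes had a lower site. Rims1, a scaffold that docks vesicles near calcium channels, averaged 1.74 ± 2.34 in the 3 susceptible libraries and 10.6 ± 0.615 in the 2 control libraries (SD). Erc2, encoding the scaffold protein CAST, held 4.73 ± 3.25 in susceptible mice and 15.5 ± 1.49 in controls, and Rab3c, a small GTPase of secretory vesicles, 2.83 ± 1.82 and 12.8 ± 1.42 (SD, n = 3 susceptible and 2 control libraries). Of 17 vesicle protein genes 2 had a lower site (11.8%), and 1 of these was among the 5 at least as long as Nsf. Synpr, the synaptoporin gene, held 1.59 ± 0.102 in susceptible mice and 12.1 ± 0.247 in controls, and Scamp1, a carrier membrane protein gene, 2.94 ± 3.11 and 11.4 ± 0.523 (same n).

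Of 33 endocytosis and recycling genes 4 had a lower susceptible site (12.1%, beside 2.71% of all genes). These were Sgip1, picked for its site, with Amph, Ap2b1 and Itsn1. Of the 8 at least as long as Nsf 3 had a lower site, beside 18.6% of all genes of that length. Amph encodes amphiphysin, which senses curved membrane, and averaged 5.07 ± 2.72 normalised counts in the susceptible libraries and 17.8 ± 0.509 in the control libraries. Ap2b1 encodes a subunit of the clathrin adaptor AP-2 and held 5.74 ± 2.18 in susceptible mice and 18.5 ± 0.240 in controls. Itsn1 encodes the endocytic scaffold intersectin-1 and held 3.45 ± 0.621 in susceptible mice and 15.1 ± 0.566 in controls (SD, n = 3 susceptible and 2 control libraries throughout).

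After acute stress 2 of the 105 genes had a lower site and 1 a higher one, shares of 1.90% and 0.952%. Over all genes the shares were 1.15% and 1.12%. Among the 32 list genes at least as long as Nsf they were 6.25% and 0%, beside 8.3% and 6.27% of all genes of that length. These counts are therefore near or below the shares over all genes. The other lower site was in Stxbp6, encoding the SNARE-binding protein amisyn, which averaged 1.19 ± 0.339 normalised counts in acutely stressed mice and 12.9 ± 1.34 in controls (SD, 2 libraries each). It rested on 2 acute stress and 32 control reads. The higher site was in Synj1, encoding synaptojanin-1, a lipid phosphatase needed for retrieved vesicles to shed their clathrin coats. Synj1 held 16.2 and 21.4 normalised counts in the acute stress libraries, against 3.24 and 5.91 in the control libraries. With 32 acute stress and 12 control reads its depth-scaled ratio was 3.72 (95% counting interval 1.87 to 7.94).

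**Figure D4:**
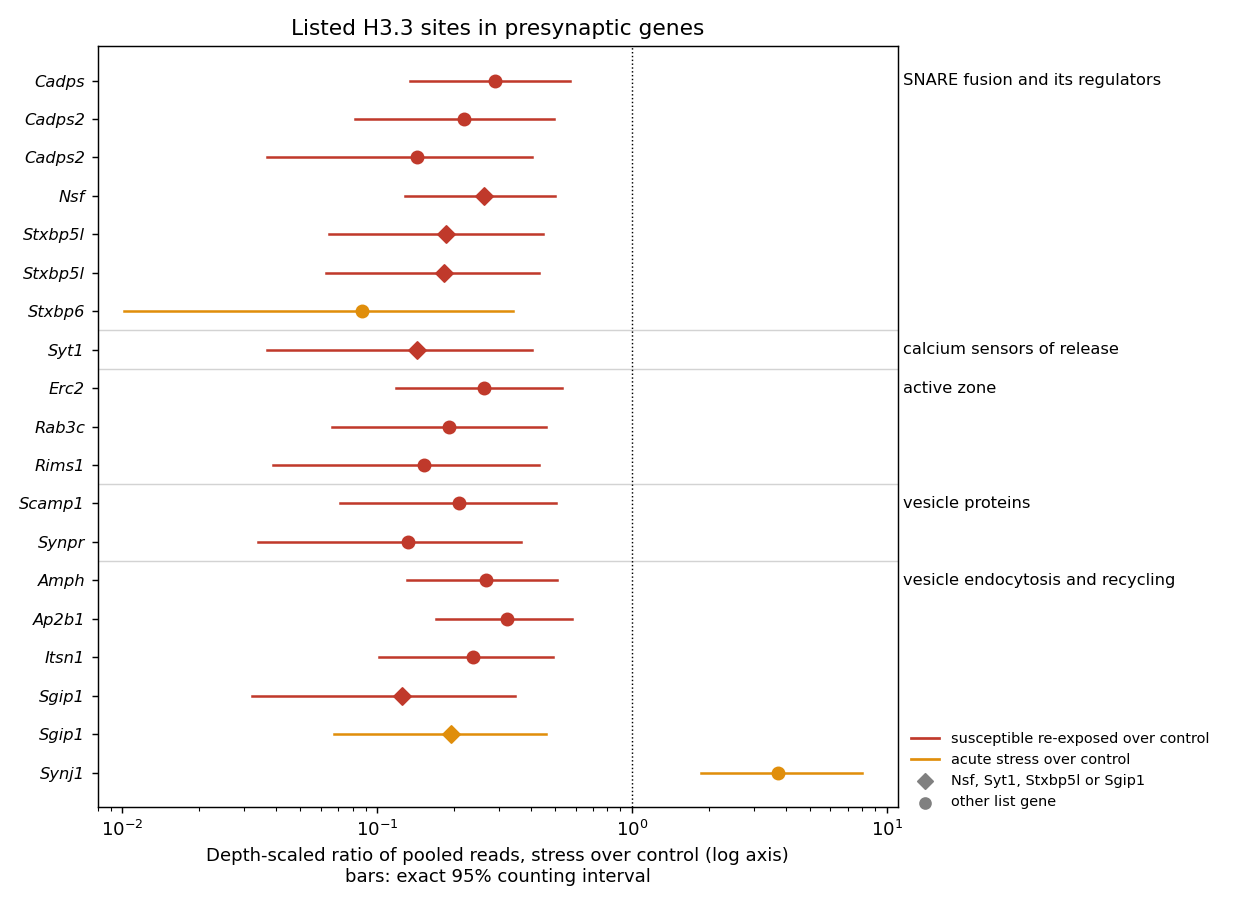
Depth-scaled ratio of pooled reads, stress over control on a log axis, at every listed site of the presynaptic genes, by functional group, with exact 95% counting intervals; diamonds are the 4 genes and circles the other list genes. All sites of the susceptible list lie below 1, and Synj1 (3.72, acute list) is the one site above it. The sites were listed by the authors' p on these same counts, so the intervals are no further test.

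Of 10 medium spiny neuron markers 0 had a lower or higher site in either list, so the labelled tissue could not be checked from these lists. Lower susceptible sites fell in 3 of 35 cell type markers in all (8.57%, against 2.71% of all genes), Aldh1l1 of astrocytes (1 of 6), Pdgfra of oligodendrocyte precursors (1 of 3) and Vwf of endothelium (1 of 5), with 0 of 6 for oligodendrocytes and 0 of 5 for microglia. Of the 34 autosomal markers 30 are shorter than Nsf, all 10 of medium spiny neurons among them. A lower site was found in 2 of the 30, where 1.36% of all shorter genes had one. Of the 4 longer markers 1 had a lower site, beside 18.6% of all genes at least as long as Nsf. The count over all markers was 2 by RefSeq gene bounds, without Vwf, and 1, Vwf, under the stricter adjusted p. The part of other cell types in the sites of the 4 genes was not tested.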

How the data were processed

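For these H3.3 ChIP and Input libraries of mouse nucleus accumbens, the submitters' processing notes name the build mm10, Bowtie2 2.2.0 and SAMtools 0.1.19. The authors deposited 2 tables of differential sites from diffReps with windows of 250 bp, per the table names. All listed p-values, as deposited by the authors, were under 0.0001, while their test and normalisation are not stated in the labels or headers. Each count cell gives normalised read counts per library, and the average columns the mean signal of a group, as the authors deposited them. The enrichment ratio and the log2 fold change were deposited by the authors too.

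The planned description kept the authors' values per site. Only listed sites have values, so no count model was fitted. Sites were matched to the genes by name after removing number suffixes, in gene body and promoter classes. Within each library the values were multiples of 1 step, and dividing by it gave whole reads for 99.9% to 100% of values (tolerance 0.011, checked on simulated data). Pooled reads were divided by the sum of relative depths (inverse steps), with exact Clopper-Pearson 95% intervals from scipy 1.17.1. These cover counting error only and do not allow for the selection of the sites on the same counts. The tables hold no totals per library. Lower sites held a median of 40 reads over 5 libraries in the susceptible list and 39 over 4 in the acute list.

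The 4 genes and the lists were chosen with earlier results of these data known. Besides the 4, every gene of the presynaptic lists with a genic site is named. The share of genes with a site was counted over autosomal protein-coding genes of RefSeq (GRCm38.p6), matched by symbol, which 560 of the 619 gene names with a lower susceptible site did. Alternatives were pseudocounts of 0.5, 1 and 2, pooled reads, leaving out each library, a stricter adjusted p and RefSeq gene bounds. Python 3.11.15, numpy 2.4.6, pandas 2.3.3 and matplotlib 3.10.9 were used.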

Additional observations from a re-analysis of the deposited data

How the results depend on the processing

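All 6 sites of the 4 genes stayed lower in the stress group under each of the 52 alternative values, which ran between -3.54 and -1.59 on the log2 scale, and 47 of them lay within the spread between libraries. The other 5 were values with a pseudocount, which pulls low counts together: with 2, Sgip1 gave -1.98 in the susceptible list and -1.83 in the acute list, and Stxbp5l gave -1.76 at site 1 and -1.81 at site 2; with 1, site 2 of Stxbp5l gave -2.09. Leaving out 1 library at a time gave ranges of -2.22 to -1.68 for Nsf, -3.54 to -2.80 for Syt1, -2.66 to -2.03 and -2.69 to -2.29 for sites 1 and 2 of Stxbp5l, -3.40 to -2.51 for Sgip1 in the susceptible list and -2.64 to -2.05 for Sgip1 in the acute list. Syt1 without the second susceptible library gave no value, since the remaining susceptible libraries were at 0. With a pseudocount Syt1 also moved, from -3.38 as deposited to -2.57 with 1 and -2.12 with 2. These values counted as within the spread only because that of Syt1, 1.71, was the widest of the 6 sites. These sites were selected for being low, so staying low is no sign of stability.

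With an adjusted p at or under 50% of the largest listed one, 9 of the presynaptic genes had a lower susceptible site in place of 14, all 4 genes among them. Stxbp5l stayed through site 2 only, as site 1 had an adjusted p of 0.00268 in the authors' deposited table, above the limit of 0.00144. For acute stress 0 had a lower and 0 a higher site in place of 2 and 1, so the acute Sgip1 site dropped out. Fewer sites enter under this limit by construction. Assigning sites by RefSeq gene bounds gave 15 genes, the 14 and Cplx2. No paired analysis was possible because the count cells do not say which numbered library is which. The sites rest on 4 to 12 stress reads and 33 to 54 control reads each, which limits the precision of every ratio.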
